A study of Mus musculus with 2 samples.

Results

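Endothelial cells line blood and lymph vessels, and 10 genes of their surface receptors, cell junctions and secreted products were followed in fat pad cells sorted for PDGFRα, a receptor of fibroblast-like stromal cells that include adipocyte precursors. The 10 genes were chosen by name, with earlier results of these data known. They are Kdr, Flt1, Tek, Tie1, Pecam1, Cdh5, Emcn, Cldn5, Egfl7 and Vwf. All 10 were found among the 19938 genes with a probe set annotated to exactly 1 gene, and each was read by a single probe set. All 10 are used as endothelial genes, and some are also made by other cells.

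Expression was measured on 1 microarray per genotype. The cells came from the stromal vascular fraction, the non-adipocyte cells of collagenase-digested tissue, of inguinal white fat from female mice aged 6 weeks. One array held Sox9 floxed and the other Sox9 PreASKO cells, and both genotypes had received doxycycline at postnatal day 1. The Sox9 protein is a DNA-binding factor needed for cartilage to form. Each array held RNA pooled from 3 animals, so it reports 1 pool and not the spread between animals. The promoter that drives the deletion in PreASKO mice and any allele beyond floxed Sox9 are not given in the sources used here. Sorting used the PDGFRα stain against an unstained aliquot, and the labels name no stain that removes endothelial or blood cells.

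VEGF receptors pass signals for vessel growth from secreted VEGF ligands, and Tie receptors pass signals for vessel stability from angiopoietins. VE-cadherin and claudins hold neighbouring endothelial cells together, while PECAM-1 and endomucin lie on the endothelial surface. PECAM-1 is also made by leukocytes and platelets, von Willebrand factor by megakaryocytes, and the Tie2 receptor by a subset of monocytes and macrophages.

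All levels are RMA values on the log2 scale, and all differences are PreASKO minus floxed on that scale. With 1 array per group no replicate spread is known, and no error or p-value is given for any difference. The series names 1.5-fold as its limit, which is 0.585 on the log2 scale. A background mark was set at 4.64, the 95th percentile in the floxed array of 1027 olfactory receptor genes, assumed here to be silent in fat tissue (4.47 in the PreASKO array; the higher value was used for both). Probe sets differ in brightness, so the mark is approximate and the levels of different genes were not ranked against each other. In RNA from mixed cells, fewer cells of a type and less RNA per cell cannot be told apart.

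The arrays correlated with r = 0.982 over 35556 probe sets. Pdgfra, which encodes the receptor used for the sort, was at 9.86 in floxed and 9.55 in PreASKO, and all 14 measured PDGFRα stromal markers lay above the mark in both arrays. Sox9 itself was at 5.25 and 4.97, a difference of -0.27, so it did not pass 1.5-fold and did not separate the labels. Both Sox9 values lay above the mark but below 5.43, the 99th percentile of olfactory receptor genes in floxed. RMA compresses differences of such dim genes, so the presence or absence of the deletion is not read from Sox9.

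The endothelial genes lay on both sides of the background mark in the sorted cells. Of the 10, 6 were above the mark in both arrays (Kdr, Tek, Cdh5, Cldn5, Egfl7 and Vwf), Pecam1 was above it in floxed alone, and Tie1, Flt1 and Emcn were below it in both. Over all genes 55.2% were above the mark in both arrays. At a stricter mark of 5.43, the 99th percentile of olfactory receptor genes in floxed, Tek and Cdh5 stayed above it in both arrays and Kdr in floxed alone, and the other 7 did not reach it. Over all 19938 genes 8442 were above the stricter mark in both arrays and 10772 in neither. Counts out of 10 genes are too small to read against these shares. Defining endothelial genes were thus split, with Cdh5 above the stricter mark and Pecam1, Tie1 and Emcn near or below the lower one.

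**Figure D1:**
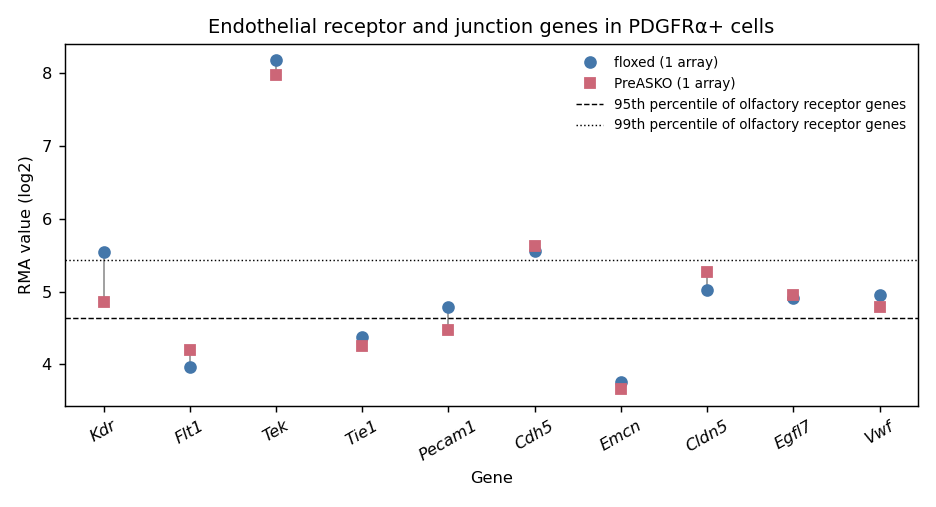
RMA values (log2) of the 10 endothelial genes in the floxed array (circles) and the PreASKO array (squares), 1 array each, with the 95th (dashed, 4.64) and 99th (dotted, 5.43) percentiles of olfactory receptor genes in floxed. Tek lies above both lines in both arrays, the Kdr symbols lie on opposite sides of the dotted line, and Flt1, Tie1 and Emcn lie below the dashed line.

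One endothelial gene, Kdr, was past 1.5-fold, and it was lower in PreASKO. Over all 19938 genes 3.64% were past the limit in either direction while 1.98% were past it in the lower and 1.66% in the higher direction, so 1 of 10 genes is a count too small to read against this background. Of the 10 genes, 6 were lower and 4 higher, with a median difference of -0.11 against 0 over all genes. The 1027 olfactory receptor genes, which set the mark, had a median of -0.08, with 57.9% lower. Of them 60 were past the limit in the lower and 12 in the higher direction, 7.01% in all. Among the 6 genes above the mark in both arrays 3 were lower and 3 higher, with a median of -0.06. Over the genes above the mark in both arrays 2.15% were past the limit, and 0.826% in the lower direction.

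**Figure D2:**
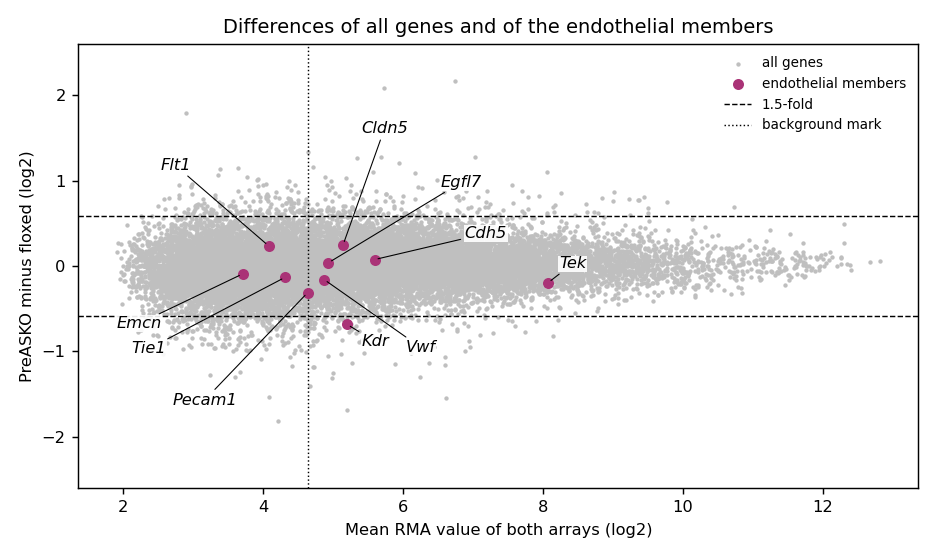
Difference PreASKO minus floxed (log2) against the mean RMA value of both arrays (log2) for all 19938 genes (grey) and the 10 endothelial genes (purple), with the 1.5-fold limits (dashed) and the background mark of 4.64 (dotted). Kdr, at -0.69, is the endothelial gene outside the limits, and the other 9 lie between the limits.

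Of the receptors of VEGF, Kdr was measured above background and Flt1 was not. Kdr encodes VEGFR-2, the main signalling receptor for VEGF-A on endothelium. It was at 5.55 in floxed and 4.86 in PreASKO, a difference of -0.69 or 1.61-fold lower. The PreASKO level was 0.22 above the background mark and the floxed level 0.90 above it. Within 0.25 of the mean level of Kdr lay 1661 genes, of which 2.11% were past 1.5-fold in the lower direction, 1.14% had a difference at or below that of Kdr, and 2.23% differed by at least as much in either direction. The SD of the differences over these genes was 0.29. Flt1 encodes VEGFR-1, which binds VEGF-A tightly and signals weakly. Its values were 3.96 and 4.20, both below the mark, so that neither a direction nor a fold is read from them.

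The Tie receptors held a gene far above background and another below it. Tek encodes Tie2, the receptor of angiopoietins. It was at 8.17 in floxed and 7.98 in PreASKO, 3.53 and 3.33 above the mark, and none of the 1027 olfactory receptor genes reached it in either array. Its difference was -0.20, or 1.15-fold lower. Of 743 genes of similar level (within 0.25) 26.8% differed by at least as much in either direction, and the SD of their differences was 0.20. Tie1 encodes the partner receptor of Tie2, which has no angiopoietin ligand bound with high affinity. Its values were 4.38 and 4.25, both below the mark, with a difference of -0.13.

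Sequences upstream of the start of 4 genes are shown because Kdr was past the limit, Tek stood far above background, and Tie1 and Cldn5 held the most and the fewest matches to the ETS core motif GGAA among the genes matched. ETS factors are known regulators of endothelial genes. Windows came from RefSeq on GRCm38.p6, with 7 of the 10 genes matched (Egfl7 with 3 starts), and cover the 250 bases before the start, 5′ to 3′ on the gene's strand. Capitals mark GGAA or its reverse complement TTCC, and matches may overlap. The windows are chr5:75978456-75978705 (minus strand) for Kdr, chr4:94739039-94739288 (plus) for Tek, chr4:118489850-118490099 (minus) for Tie1 and chr16:18776597-18776846 (plus) for Cldn5. The RefSeq gene records of Kdr and Tek extend further upstream than the start used here.
Kdr: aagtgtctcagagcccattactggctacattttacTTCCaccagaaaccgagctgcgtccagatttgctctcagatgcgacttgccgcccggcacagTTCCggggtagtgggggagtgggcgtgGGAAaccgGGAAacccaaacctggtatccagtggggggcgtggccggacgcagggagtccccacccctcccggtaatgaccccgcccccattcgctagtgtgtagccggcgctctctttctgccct
Tek: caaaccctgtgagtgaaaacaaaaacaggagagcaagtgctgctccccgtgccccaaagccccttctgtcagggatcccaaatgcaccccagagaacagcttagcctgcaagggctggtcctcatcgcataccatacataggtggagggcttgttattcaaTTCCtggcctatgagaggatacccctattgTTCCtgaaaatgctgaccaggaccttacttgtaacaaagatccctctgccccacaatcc
Tie1: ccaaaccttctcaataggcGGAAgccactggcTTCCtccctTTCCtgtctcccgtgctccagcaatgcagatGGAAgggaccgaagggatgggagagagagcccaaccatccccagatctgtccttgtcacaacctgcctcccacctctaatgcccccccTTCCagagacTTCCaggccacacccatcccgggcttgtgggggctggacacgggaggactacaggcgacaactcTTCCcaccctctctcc
Cldn5: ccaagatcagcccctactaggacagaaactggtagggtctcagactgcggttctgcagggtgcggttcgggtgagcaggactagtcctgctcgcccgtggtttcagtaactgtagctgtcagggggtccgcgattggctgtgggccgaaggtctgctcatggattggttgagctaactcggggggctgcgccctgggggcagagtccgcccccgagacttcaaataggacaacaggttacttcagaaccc

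The Tie1 window held 7 matches, a number reached by 3.82% of 32851 windows of the same length over all RefSeq genes. This share is for 1 window taken alone, while Tie1 was picked as the highest of 9 windows. Kdr, Flt1 and Emcn windows held 4 each, a number reached by 33.4% of all windows. The Tek window held 2 and the Cldn5 window 0, and the 3 Egfl7 windows held 5, 3 and 1. Since 93.5% of all windows held at least 1 match, the presence of the core sets no gene apart. The 6-base form AGGAAG, searched on both strands and lying over the core where it occurs, was found in 5 of the 9 windows (Flt1, Tie1, Emcn and 2 of Egfl7) and in 29.5% of all windows. The bases ACAAT, a core bound by SOX proteins, were searched on both strands and found in the windows of Tek (2 matches) and Emcn (1 match) and in 27.7% of all windows. The Kdr window held no ACAAT, which says only that these letters are not in this window. TATAAA, on either strand, was found in the Flt1 window alone of the 9, against 12.4% of all windows. The CpG count also differed between the receptor genes, with 23 in the Flt1 window, 16 in Kdr, 6 in Tie1 and 2 in Tek, against a median of 6 over all windows. A match is a description of the letters and not a measured site.

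Of the cadherin and claudin genes among the 10, Cdh5 and Cldn5, neither was past 1.5-fold, and both lay above the mark in both arrays. Cdh5, which encodes VE-cadherin, the adhesion protein of endothelial adherens junctions, was at 5.56 and 5.63, a difference of 0.07. It lay 0.91 and 0.99 above the mark, and 99.2% and 99.7% of olfactory receptor genes were below it in the respective arrays. Cldn5, the main claudin of endothelial tight junctions, was at 5.02 and 5.27, a difference of 0.25 or 1.19-fold higher. Of 1676 genes of similar level 35.7% differed by at least as much.

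The surface protein genes Pecam1 and Emcn were near or below background, and neither was past 1.5-fold. Pecam1, the adhesion protein CD31, was at 4.79 in floxed and 4.48 in PreASKO, a difference of -0.31. The PreASKO value lay below the mark of 4.64, which comes from the floxed array, but just above the 95th percentile of its own array (4.47). With the PreASKO value raised to the mark, Pecam1 was 1.11-fold lower. Among 1804 genes of similar level 25.1% differed by at least as much. Emcn, the mucin-like protein endomucin of capillaries and veins, was at 3.75 and 3.66, below the mark in both arrays.

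The secreted products differed little. Egfl7, a secreted factor of endothelium, was at 4.92 and 4.95, a difference of 0.04. Vwf, whose product tethers platelets to exposed vessel wall and carries clotting factor VIII in plasma, was at 4.95 and 4.79, a difference of -0.16, and 55.4% of 1642 genes of similar level differed by at least as much. Both genes lay within 0.31 of the mark in both arrays.

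The Egfl7 gene also holds miR-126, a microRNA of endothelium, whose mature arm is shown because it is read from within the bounds of this gene. In RefSeq on GRCm38.p6 it lies at chr2:26591402-26591423 (plus strand), and capitals mark the seed, bases 2 to 8.
mmu-miR-126a-3p: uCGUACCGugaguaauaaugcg
The array has a probe set for the gene Mir126a, which was looked up after the values of Egfl7 were seen. It was at 2.50 and 2.32, below the mark in both arrays, and it does not tell the mature arm from its precursor.

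Of 12 measured vessel ligand genes, 11 had lower values in PreASKO, none past 1.5-fold, with a median difference of -0.16. Of all 19938 genes 48.0% were lower, 9614 were higher and 3.64% were past 1.5-fold, which is the background for the lists below too. Among the 12, Gdf2, Bmp10, Apln and Dll4 act on receptors of other families and were below the mark in both arrays. The 8 genes of the VEGF and angiopoietin families had a median of -0.24, with 7 lower and 1 higher, and of these Pgf was below the mark in both arrays. Angpt1, the activating ligand of Tie2, was at 5.48 and 4.99, a difference of -0.49. Angpt2, a ligand that acts on Tie2 as a context-dependent antagonist, was at 7.13 and 6.67, a difference of -0.46. Angpt4 differed by -0.28. In the other direction Vegfa, the ligand of Kdr and Flt1, was at 7.58 and 7.82, a difference of 0.24.

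Other endothelial receptors showed no common direction. Of 22 measured, 12 were higher, 8 lower and 2 equal, none past 1.5-fold, with a median of 0.02. Of the 22, 15 were above the mark in both arrays and 6 below it in both. Which cells made these transcripts was not tested. S1pr1, a receptor for sphingosine 1-phosphate, was at 7.54 and 7.24, Calcrl, a receptor of adrenomedullin, at 8.57 and 8.31, and Procr, the protein C receptor, at 7.66 and 7.44. Aplnr, the apelin receptor, was higher by 0.43 (4.75 and 5.18), Nrp2, a coreceptor for VEGF and semaphorins, by 0.28, and Notch1 by 0.23.

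Further junction genes had a median of -0.06 over 19 measured, with 12 lower, 7 higher and none past 1.5-fold. Jam3, a junctional adhesion molecule, differed by -0.24, Ctnnd1, the cadherin partner p120-catenin, by -0.20 and Gja1, the gap junction protein connexin 43, by -0.15. Icam2 (0.08) and Jam2 (0.06) differed in the other direction. Catenins and connexin 43 are made by many cell types, so these genes do not mark endothelium.

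Transcription factors of endothelium and blood had a median of 0.01 over 17 measured, with 9 higher and 8 lower, and of 0.12 over the 11 above the mark in both arrays. Hhex, a homeobox factor of endothelium and blood precursors, was the member past 1.5-fold, at 4.04 and 4.73. Its floxed value lay below the mark, and with that value raised to the mark Hhex was 1.06-fold higher. Lyl1, a factor shared with blood cells, was higher by 0.52 (6.24 and 6.76) and the ETS factor gene Fli1 by 0.34 (6.54 and 6.88). Klf2, a factor induced by blood flow, differed by -0.12, Bcl6b by -0.11 and Gata2 by -0.10.

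Other blood vessel markers had a median of -0.08 over 20 measured, with 13 lower, 6 higher and 1 equal. Ctla2a, a protease inhibitor gene, was past 1.5-fold, at 4.99 and 4.18. Its PreASKO value lay below the mark, and with that value raised to the mark Ctla2a was 1.27-fold lower. Efnb2, the arterial ephrin-B2, was at 6.90 and 6.39, a difference of -0.51, and Nr2f2, a nuclear receptor of venous and of stromal cells, differed by -0.31. Cd36, a fatty acid transporter of capillaries, adipocytes and macrophages, was higher by 0.38, Mmrn2 by 0.31 and the water channel gene Aqp1 by 0.21. Mmrn2 was above the mark in PreASKO alone.

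Lymphatic endothelial markers had a median of 0.03 over 8 measured, with 4 higher, 4 lower and none past 1.5-fold. Of the 8, 4 were above the mark in both arrays, with a median of 0.14, namely Pdpn (-0.38), Lyve1 (0.43), Thy1 (0.17) and Itga9 (0.11). Pdpn and Thy1 are also made by fibroblasts and Lyve1 by resident macrophages. Prox1, the defining transcription factor of lymphatic endothelium, was below the mark in both arrays at 3.50 and 3.25.

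**Figure D3:**
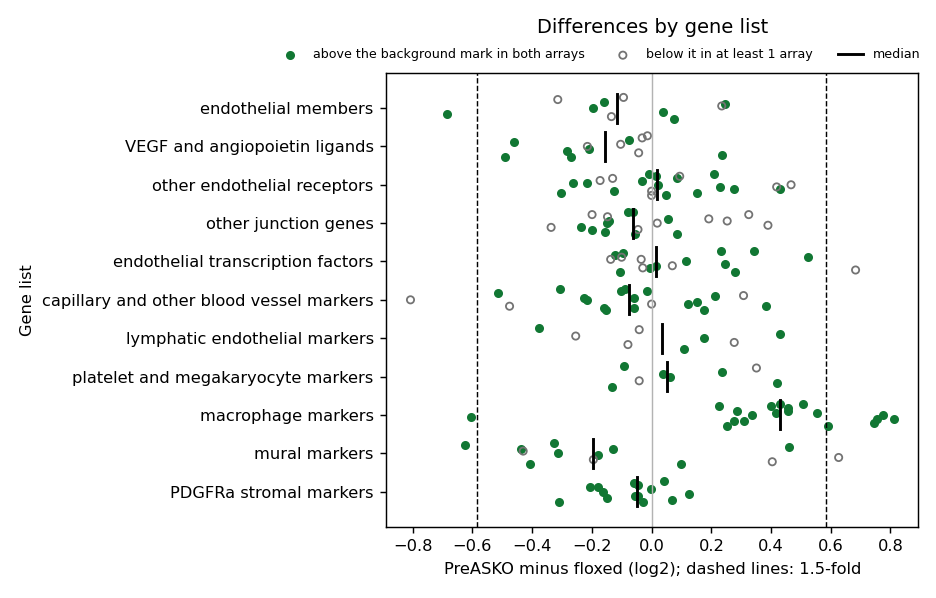
Difference PreASKO minus floxed (log2) of each measured gene by list, with filled points above the background mark in both arrays, open points below it in at least 1 array, a bar at the list's median and dashed lines at 1.5-fold. The macrophage list lies to the right (median 0.43), the mural list to the left (median -0.20), and the 10 endothelial genes have a median of -0.11.

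Markers of other cells moved beside these values. Their lists, like all lists here, were chosen with earlier results of these data known, so the counts only describe them. Over all 19938 genes 9614 were higher in PreASKO, and 1.66% were past 1.5-fold in the higher direction. Of 19 macrophage markers 18 were higher in PreASKO, 5 of them past 1.5-fold, and the median was 0.43. Their mean level was 8.42 in floxed (range 6.09 to 11.04) and 8.84 in PreASKO (range 5.80 to 11.46), and none was below the mark. H2-Ab1 (0.81), Tyrobp (0.77), C1qa (0.75), Cd74 (0.75) and Fcer1g (0.59) were the 5, and Cx3cr1 was past the limit in the other direction (-0.60). Pecam1 and Tek, both of which can be made by blood-derived cells, differed by -0.31 and -0.20, being lower in the array where these markers were higher. The part of macrophages in the Tek and Pecam1 levels was not tested.

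Platelet and megakaryocyte markers, which share Vwf and Pecam1 with endothelium, had a median of 0.05 over 8 measured. Their mean level was 5.74 in floxed (range 3.46 to 9.93) and 5.85 in PreASKO (range 3.81 to 10.35). The defining integrin gene Itga2b was at 5.12 and 5.02, and the chemokine gene Ppbp was below the mark in both arrays. Pf4, a chemokine of platelets that resident macrophages also make, was at 9.93 and 10.35. Gp5 was higher by 0.24 and Treml1 by 0.06, and F2rl2 differed by -0.13. Their part in the Vwf and Pecam1 levels was not tested.

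Mural markers, of the pericytes and smooth muscle that wrap vessels, had a median of -0.20 over 13 measured. Where 48.0% of all genes were lower, 9 of these 13 were lower and 4 higher. Their mean level was 5.45 in floxed (range 3.21 to 8.66) and 5.34 in PreASKO (range 3.01 to 8.48), and 3 were below the mark in both arrays. Kcnj8, a pericyte potassium channel gene, was past 1.5-fold at 5.98 and 5.36, and Acta2 (-0.44) and Abcc9 (-0.41) were lower. Notch3 (0.46), Myh11 (0.40) and Rgs5 (0.10) were higher, as was Cnn1, which was past the limit but below the mark in both arrays. PDGFRα stromal markers had a median of -0.05 over 14 measured, with 11 lower and 3 higher, from Pdgfra (-0.31), Col1a1 (-0.21) and Pdgfrb (-0.18) to Col3a1 (0.04), Gsn (0.07) and Mfap5 (0.12). Pdgfrb is in both the mural and the stromal list, and its 8.66 and 8.48 are the highest levels of the mural list. Kdr was lower in the array where 9 of the 13 mural markers were lower and 4 higher. In that array Pdgfra was lower within 1.5-fold, and 18 of 19 macrophage markers were higher. The part of these cells in the Kdr difference was not tested.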

How the data were processed

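Per the submitters' processing notes the authors summarised the arrays with RMA (background correction, matching of the arrays' distributions, summary per probe set); no version or genome build is given in the sources used here. The deposited values were taken as log2 from their range (1.23 to 13.8). RMA compresses differences of dim genes. The labels name polyA RNA as the molecule and total RNA in the extraction step.

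Of 35556 probe sets 21789 named 1 gene, 1621 several and 12146 were not listed in the platform annotation, which can be old. Where a gene had several, the probe set with the highest mean was used. The 10 genes' identifiers were all found in RefSeq (GRCm38.p6).

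The 11 gene lists, the 10 members among them (170 genes, 160 measured), were chosen with earlier results of these data known. Beyond the 10 members, Pdgfra and Sox9, genes named were up to 3 per list and direction with the largest differences among those whose higher array reached the mark, and every list member past 1.5-fold; Prox1, Ppbp, Pgf, Gdf2, Bmp10, Apln and Dll4 were named after their values were seen. No test was made, since each group has 1 array. The alternatives were the mean over probe sets, centring, loess (span 0.3), quantile normalization, 2 level floors, a 2-fold limit and raising values to the mark. The steps were tested on simulated data. Python 3.11.15, pandas 2.3.3, numpy 2.4.6, statsmodels 0.14.6 and matplotlib 3.10.9 were used.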

Additional observations from a re-analysis of the deposited data

How the results depend on the processing

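No paired analysis was possible because a genotype is a single array, and for the same reason no replicate could be left out. The difference of Kdr was -0.68 after quantile normalization and -0.70 after loess, both past 1.5-fold. These rescalings moved no member by more than 0.0634 and took no other member past the limit. The mean over probe sets and centring could move no member, since each has 1 probe set and the median difference was 0. Kdr lies above the mark in both arrays, so raising values to that mark could not move it. Its PreASKO value of 4.86 is only 0.22 above that mark and is below the stricter mark of 5.43. Raising values to the stricter mark was not tried, and it would make the Kdr difference smaller. Raising values below the mark to it took Flt1, Tie1 and Emcn to 0, Pecam1 to -0.15 and the median of the 10 genes from -0.11 to 0, because 3 of them have no value above the mark. Over all genes, 331 higher and 394 lower became 161 and 107 with a level floor of 5.18 (the median over all genes of the brighter array), 209 and 172 with a floor at the mark, 22 and 29 at 2-fold, and 161 and 103 with values raised to the mark. Kdr does not pass a 2-fold limit. After quantile normalization the counts were 374 and 343, which turned the balance between directions. The ligand median became -0.04 with values raised to the mark and -0.27 over members reaching it, over which the transcription factor median became 0.12 and the lymphatic median 0.14. The stricter mark, added after seeing the data, left 2 of the 6 genes above it in both arrays, and the macrophage median without Lyve1, also added then, was 0.44; the split of the ligand list by family (median -0.24) was added after seeing the data too. Levels near the mark limit what these arrays can show for Flt1, Tie1, Emcn and Pecam1.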
